A study of Mus musculus with 6 samples.

Results

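The 10 imprinted growth genes H19, Igf2, Igf2r, Peg3, Peg10, Mest, Plagl1, Grb10, Meg3 and Dlk1 were followed in cultured mouse mammary tumor cells depleted of CdGAP. The genes were chosen by symbol, and all 10 were found among the 41214 genes of the deposited table. The cells came from tumor explants of NMuMG, an immortalized mouse line of mammary epithelium. They carried Neu-NT, the oncogenic rat version of ErbB2, a growth factor receptor. The labels give the genotype Neu-NT shCdGAP for 3 libraries and Neu-NT shCON for the other 3, where shCdGAP is a short hairpin against CdGAP, the product of Arhgap31, which switches off the GTPases Rac1 and Cdc42, and shCON is the control hairpin. All 6 libraries came from cells grown in DMEM with 10% FBS, 10 ug/ml insulin and 600 ug/ml G418, and total RNA was sequenced. The labels do not say whether either line is a single clone, whether several hairpins were used, or whether libraries with the same label were grown apart. The p-values therefore measure only how the libraries spread, which may be technical.

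Genomic imprinting leaves a gene active mainly on the chromosome copy inherited from the mother or from the father, under DNA methylation set in the germ line. Several imprinted genes act on fetal growth: Igf2 encodes a growth factor read from the paternal copy, and Igf2r encodes the receptor that carries this factor to lysosomes and is read from the maternal copy in most mouse tissues. Many are abundant in the embryo and placenta and decline after birth. RNA levels per gene, as measured here, do not tell the parental copies apart.

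The libraries held between 19176540 and 26824249 reads assigned to genes. Arhgap31, the target of the hairpin, had 0.149, 0.826 and 0.748 FPKM (fragments scaled to gene length and depth) in shCdGAP replicates 1, 2 and 3, against 1.19, 1.30 and 1.35 FPKM in shCON. The groups did not overlap, but its log2 fold change of -0.56 missed the threshold (SE 0.18, limma adjusted p = 0.0836), and without shCdGAP replicate 1 it was -0.35 (limma adjusted p = 0.0157). shCdGAP replicate 1 stood apart: across genes its log2(FPKM + 1) values correlated at 0.948 and 0.938 with replicates 2 and 3, which correlated with each other at 0.996, while the shCON pairs correlated at 0.990 to 0.998. Of 8 mammary epithelial markers 7 were tested, 2 were higher, 2 lower and 3 did not pass. Over all tested genes 9.92% were higher and 11.1% lower. Krt8 and Krt18 reached at least 1491 FPKM in all 6 libraries and, like Krt19, did not pass. Cdh1, which encodes E-cadherin, averaged 168 ± 16.1 FPKM in shCdGAP and 50.7 ± 11.1 FPKM in shCON, and Krt7 averaged 0.792 ± 0.269 FPKM in shCdGAP and 0.264 ± 0.0460 FPKM in shCON (SD, n = 3 each; limma adjusted p = 0.00220 and 0.0353, higher; for Krt7 0.0551 with a replicate block and 0.0802 to 0.128 without shCdGAP replicate 2 or 3 or any shCON library). Krt5 averaged 0.0131 ± 0.0114 FPKM in shCdGAP and 0.607 ± 0.124 FPKM in shCON, and the adhesion molecule Epcam had 0 reads in shCdGAP and 0.632 ± 0.158 FPKM in shCON (SD, n = 3 each; limma adjusted p = 0.00188 and 0.00232, lower).

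The starts of 3 of these genes are printed because Peg3 was the member that changed, Igf2r the other member with enough reads for the test, and Meg3 a member with almost no reads that shares a motif with Peg3. Each is the RefSeq window from 250 bases before to 50 bases after the start, in build GRCm38.p6, which held entries for 8 of the 10 members. Capitals mark the motifs TGACG and CACCTG, as well as CCAAT, on either strand, and overlapping TGACG matches on opposite strands form the palindrome TGACGTCA.
Peg3, chr7:6730370-6730669, minus strand: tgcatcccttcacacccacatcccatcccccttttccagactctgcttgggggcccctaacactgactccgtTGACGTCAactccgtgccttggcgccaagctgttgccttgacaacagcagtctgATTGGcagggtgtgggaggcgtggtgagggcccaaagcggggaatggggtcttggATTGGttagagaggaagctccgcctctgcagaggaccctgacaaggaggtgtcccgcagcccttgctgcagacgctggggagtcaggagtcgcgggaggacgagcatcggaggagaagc
Igf2r, chr17:12769657-12769956, minus strand: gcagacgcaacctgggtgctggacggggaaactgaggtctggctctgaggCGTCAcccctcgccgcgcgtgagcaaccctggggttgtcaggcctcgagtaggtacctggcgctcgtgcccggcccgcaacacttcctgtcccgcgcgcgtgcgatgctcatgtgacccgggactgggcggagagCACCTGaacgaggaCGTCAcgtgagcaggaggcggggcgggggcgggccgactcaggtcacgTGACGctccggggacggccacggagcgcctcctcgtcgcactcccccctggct
Meg3, chr12:109540746-109541045, plus strand: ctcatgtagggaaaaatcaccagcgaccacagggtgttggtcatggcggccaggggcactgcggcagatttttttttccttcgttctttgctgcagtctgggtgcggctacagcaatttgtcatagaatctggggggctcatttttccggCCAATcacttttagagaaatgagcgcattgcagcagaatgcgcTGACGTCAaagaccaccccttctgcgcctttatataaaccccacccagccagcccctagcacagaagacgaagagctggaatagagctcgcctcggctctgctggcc
TGACGTCA, the cyclic AMP response element, started at position -178 in Peg3 and -57 in Meg3, counted from the start of the gene, and occurred in 1.79% of 32851 promoter windows. Its shorter form TGACG occurred 3 times in Igf2r and in 20.8% of windows. CACCTG, the E-box that Zeb proteins bind, began at position -65 in Igf2r and occurred in 20.2% of windows, with no match in the Peg3 and Meg3 windows. CCAAT was found in 37.4% of windows and lay at -124 and -69 in Peg3, on the opposite strand, and at -100 in Meg3. CpG dinucleotides numbered 13 in Peg3, 34 in Igf2r and 13 in Meg3, against a median of 7 over all windows. The Meg3 values are those of the printed window. Another Meg3 window, chr12:109545148-109545447, held none of these motifs and 1 CpG. The motifs were chosen after the values were seen, and a match describes letters and not binding.

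Most of the 10 genes were silent or nearly so in both groups. H19, Peg10, Mest, Plagl1 and Dlk1 had 0 reads in each of the 6 libraries, Meg3 had 1 read in all, and Grb10 and Igf2 had a few. Peg3 and Igf2r passed the filter on low values (at least 10 reads, at a common depth, in 3 or more libraries), and of these Peg3 was lower in shCdGAP cells while Igf2r did not pass the test. The median log2 fold change of these 2 genes was -1.53, against -0.01 over the 13483 genes tested. Across those genes 2838 passed at a limma adjusted p of 0.05, which is 21.0% of them, with 9.92% higher and 11.1% lower, so 1 call among 2 tested members is no more than a description of Peg3.

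Peg3 encodes a large zinc finger protein read from the paternal copy, which binds DNA and has been tied to growth and maternal behavior in mice. The gene lies at 6703892 to 6730431 on the minus strand of chromosome 7 (mm10). It had 0.0197, 0 and 0.00302 FPKM in shCdGAP replicates 1, 2 and 3, against 8.88, 5.08 and 4.63 FPKM in shCON. Every shCON library was far above every shCdGAP library, and shCON replicate 1 was the highest of its group. In reads these levels stand for 6, 0 and 1 in shCdGAP, 7 in all (exact 95% Poisson interval 2.81 to 14.4), against 2285, 1860 and 1648 in shCON, 5793 in all (interval 5645 to 5944). These intervals cover counting error only.

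The mean was 0.00758 ± 0.0106 FPKM in shCdGAP and 6.20 ± 2.34 FPKM in shCON (SD, n = 3 each), so the shCON mean was 818 times the shCdGAP mean, a ratio that rests on 7 reads. The log2 fold change of FPKM + 1 was -2.79 (SE 0.22, limma adjusted p = 6.83e-04), a scale on which the added 1 FPKM bounds the fall of a gene at this level. In the authors' deposited table Peg3 had a log2 fold change of -8.07 (SE 0.46) with an adjusted p of 1.29e-64. Counted from the lowest, Peg3 was number 38 of 13483 tested genes by log2 fold change of FPKM + 1, number 61 by the ratio of means, and number 2 of 16970 in the authors' deposited table. These ranks come from scales that treat low counts differently. The authors' deposited table gave Usp29, a gene with 1 read in all, a log2 fold change of only -0.23 (SE 0.36). In bulk RNA, fewer cells that express a gene and less RNA per cell cannot be told apart.

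A drop to almost no reads was not particular to Peg3. With limits set after the values were seen, 53 genes had at most 10 reads in each shCdGAP library and at least 100 in each shCON library, Peg3 among them, and 19 genes showed the opposite pattern. Over the 6 libraries the profiles most like that of Peg3, by the root mean square difference of centred log2(FPKM + 1) values among 11274 genes, were those of Aqp8 (0.137), Dhrs9 (0.144), Havcr2 (0.157), Pgf (0.177) and Lgr6 (0.190). Aqp8, a water channel, averaged 0.220 FPKM in shCdGAP and 7.30 FPKM in shCON, and Pgf, placental growth factor, averaged 0.238 FPKM in shCdGAP and 6.59 FPKM in shCON. Havcr2 averaged 0.0592 FPKM in shCdGAP and 5.11 FPKM in shCON. Lgr6 kept 0.456 FPKM in shCdGAP against 8.06 FPKM in shCON, and Dhrs9 1.31 against 12.6 FPKM. With 1 FPKM added, a like profile therefore need not be a fall to almost no reads.

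No tested gene around Peg3 passed the threshold. Usp29, which starts 146 bases away on the opposite strand and whose promoter window shares 263 bases with that of Peg3, had 1 read in all 6 libraries. Zim1, another zinc finger gene of the domain, had 7, 3 and 0 reads in shCdGAP, against 1, 0 and 0 reads in shCON. Within 500 kb of Peg3, a distance chosen after the values were seen, the annotation held 24 other protein-coding genes, of which 10 had 0 reads and 6 were tested. Of these 6, 0 passed in limma, against 21.0% of all tested genes, and 6 genes are too few to tell 0 calls from that share. At an unadjusted p under 0.05 there were also 0, and 0 of the 6 passed in limma-voom or in the authors' deposited table. Their smallest limma adjusted p was 0.512, and the median of their log2 fold changes was 0.02. Zfp954, the most abundant of them, averaged 5.06 FPKM in shCdGAP and 4.55 FPKM in shCON.

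**Figure D1:**
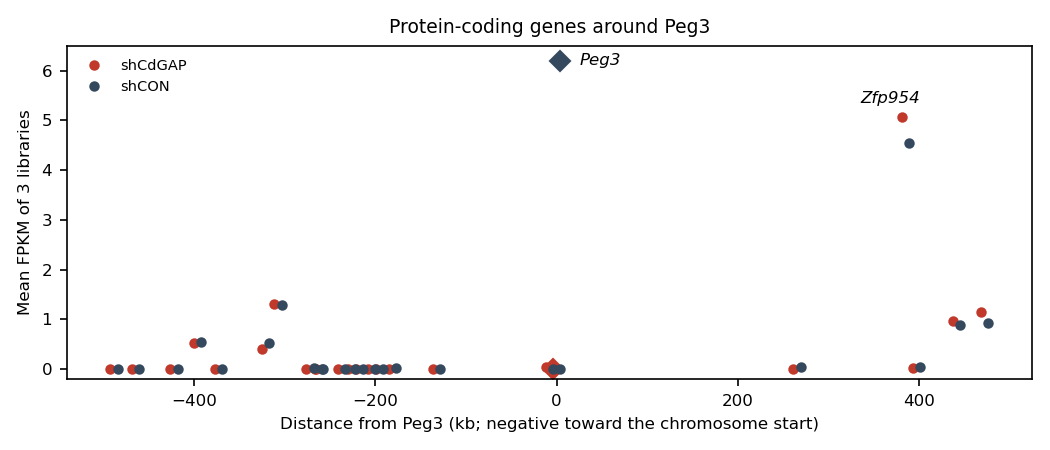
Mean FPKM over 3 libraries of Peg3 (diamonds, at distance 0) and of the protein-coding genes within 500 kb of it, in shCdGAP (red) and shCON (dark blue), against distance in kb, with the groups drawn slightly apart. Peg3 stands at 6.20 FPKM in shCON and near 0 in shCdGAP, while the points of each neighbor lie close together.

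Igf2r, at 12682406 to 12769664 on the minus strand of chromosome 17, was the most abundant member in shCdGAP cells and second to Peg3 in shCON cells. It had 1.19, 1.08 and 0.802 FPKM in shCdGAP replicates 1, 2 and 3, against 1.37, 1.63 and 1.35 FPKM in shCON. The reads behind these levels numbered 257, 223 and 188 in shCdGAP, against 249, 422 and 341 in shCON. All 3 shCdGAP values lay below all 3 shCON values, which also held for 44.1% of tested genes. The mean was 1.02 ± 0.200 FPKM in shCdGAP and 1.45 ± 0.155 FPKM in shCON (SD, n = 3 each), and the log2 fold change of -0.28 did not pass the test (SE 0.11, limma adjusted p = 0.130). Without shCdGAP replicate 1 it passed at -0.34 (limma adjusted p = 0.0426), in a fit that called 39.9% of all tested genes.

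Airn, the paternally read antisense RNA that silences Igf2r on that copy, starts inside Igf2r and runs the other way, from 12741311 to 12860136. The sources used here do not state whether the counting used strand, so reads of the 2 genes may be mixed where they overlap. Airn had 1.32, 1.42 and 0.640 FPKM in shCdGAP replicates 1, 2 and 3, against 0.708, 0.589 and 0.501 FPKM in shCON. shCdGAP replicate 3 fell within the shCON range, and the log2 fold change of 0.39 did not pass (SE 0.16, limma adjusted p = 0.148), but it did without shCdGAP replicate 3 (0.57, limma adjusted p = 0.0196).

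Igf2 lies at 142650766 to 142666816 on chromosome 7 and H19, a maternally read long noncoding RNA that shares its enhancers, at 142575529 to 142578143, both on the minus strand. Igf2 had 0.0458, 0.135 and 0.0703 FPKM in shCdGAP, against 0.0181, 0.00635 and 0.0588 FPKM in shCON. These levels rest on 6, 17 and 10 reads in shCdGAP, against 2, 1 and 9 in shCON. The lowest shCdGAP library lay below the highest shCON library, and a 2-sided exact permutation test gave p = 0.2, where 3 against 3 libraries cannot go below 0.1. In the authors' deposited table Igf2 had a log2 fold change of 1.09 with an adjusted p of 0.227. H19 had 0 reads in all libraries. The upper limit that a count of 0 allows, taken as 3 reads, was 0.116 to 0.136 CPM (reads scaled to library size) in the shCdGAP libraries and 0.112 to 0.156 in shCON.

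Grb10, an adaptor that restrains signalling from the insulin and IGF receptors, had 1, 2 and 0 reads in shCdGAP, against 3, 4 and 2 reads in shCON, with overlapping groups and a 2-sided exact permutation p of 0.2. Between libraries of the same number, Igf2 and Airn were higher in shCdGAP in 3 of 3 pairs and Grb10 was lower in 3 of 3, where an exact sign-flip test over 3 pairs gave p = 0.25, the smallest it can give. Meg3, a maternally read long noncoding RNA, had a single read, in shCON replicate 1. Its neighbor Dlk1, a paternally read transmembrane relative of the Notch ligands, had 0 reads. Peg10, which derives from a retrotransposon and is needed in the placenta, Mest, an enzyme of the alpha/beta-hydrolase fold, and Plagl1, a zinc finger factor, were also at 0 throughout. A count of 0 was common in this table, at 24.1% of 21911 protein-coding genes and 60.7% of 2726 long intergenic noncoding genes.

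Ordered by mean FPKM, the members ran Igf2r 1.02, Igf2 0.0838, Peg3 0.00758 and Grb10 0.00495 in shCdGAP cells, and Peg3 6.20, Igf2r 1.45, Igf2 0.0277 and Grb10 0.0138 in shCON cells. The ranges of Peg3 and Grb10 overlapped in shCdGAP, and those of Igf2 and Grb10 overlapped in shCON, so neither pair was separated beyond its spread.

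**Figure D2:**
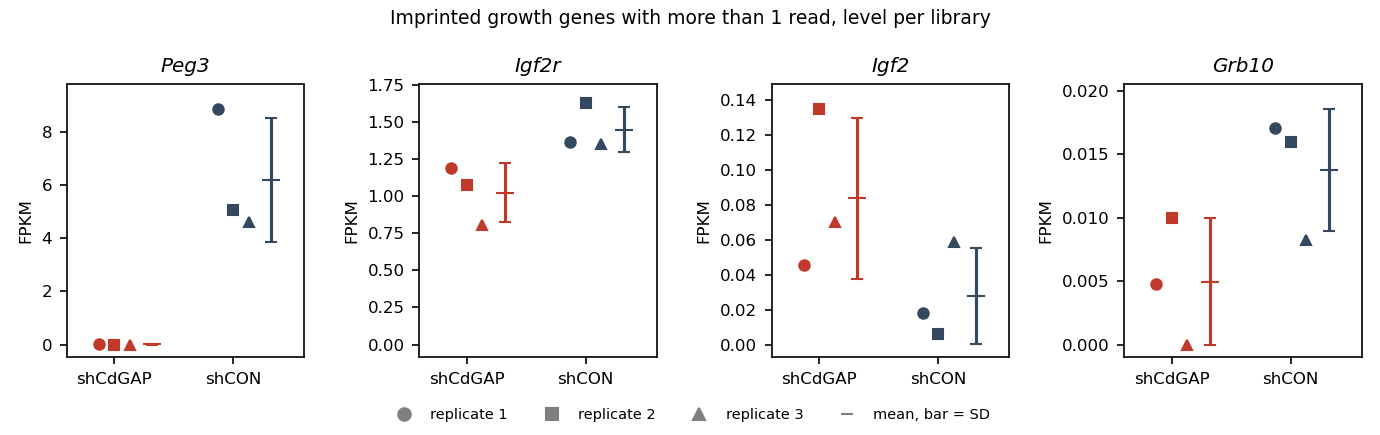
FPKM per library of Peg3, Igf2r, Igf2 and Grb10 in shCdGAP (red) and shCON (dark blue), with a shape for each replicate number and the mean with SD at the right of each group (n = 3), each panel on its own linear axis. Peg3 is near 0 in all 3 shCdGAP libraries and between 4.63 and 8.88 FPKM in shCON.

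Other imprinted genes and the genes beside them moved in both directions. Of 72 such genes listed, 67 were in the table, 17 had 0 reads in all libraries and 34 were tested. Of those 34, 8 were higher and 3 lower in shCdGAP cells and 23 did not pass, with a median log2 fold change of 0.16 and 20 with groups that did not overlap. The 11 calls of 34 stand against 21.0% over all tested genes, and the 20 of 34 without overlap against 44.1%. The count of calls was 18 without shCdGAP replicate 1, where 39.9% of all tested genes passed. Leaving out any other library lowered both this count and the calls over all 13483 tested genes, from 2838. The counts were 6 without shCdGAP replicate 2 (1476 over all genes) and 10 without shCdGAP replicate 3 (2146). They were 6 without shCON replicate 1 (1724), 5 without shCON replicate 2 (1237) and 5 without shCON replicate 3 (1332). The authors' deposited comparison called 12 higher and 5 lower of 39, against 23.8% of all genes in either direction there.

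Dio3, a deiodinase that inactivates thyroid hormone and lies at the far end of the domain of Dlk1 and Meg3, was higher in shCdGAP cells. It had 10.1, 11.2 and 13.3 FPKM in shCdGAP, against 0.0765, 0.143 and 0.110 FPKM in shCON, with every shCdGAP library above every shCON library. Its mean in shCdGAP was 105 times the shCON mean, which rests on 17 reads, and its log2 fold change was 3.49 (SE 0.12, limma adjusted p = 5.50e-05). Between Dlk1 and Dio3, the noncoding RNAs Meg3, Rian and Mirg and the retrotransposon-derived Rtl1 had at most 3 reads in any library. Begain, before Dlk1, had 0 reads, and Wars, a tRNA synthetase beyond it, averaged 23.7 ± 2.78 FPKM in shCdGAP and 40.1 ± 3.16 FPKM in shCON (SD, n = 3 each; log2 fold change -0.74, limma adjusted p = 0.00922).

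Zrsr1, a paternally read relative of a splicing factor that sits inside an intron of Commd1, had 432, 185 and 164 reads in shCdGAP, against 0 reads in each shCON library. The shCdGAP mean of 3.45 FPKM was at least 90.1-fold higher than the level of 3 reads per shCON library, and the mean without shCdGAP replicate 1 at least 59.9-fold higher (log2 fold change 2.06, SE 0.29, limma adjusted p = 0.00591). Its close copy Zrsr2, named after its values were seen, had 3.70, 4.77 and 4.59 FPKM in shCdGAP, against 5.74, 5.91 and 5.56 FPKM in shCON, and did not pass (limma adjusted p = 0.0896). How the counting divided reads between the copies was not tested, so the level of Zrsr1 is uncertain. Its host Commd1 averaged 5.23 ± 0.645 FPKM in shCdGAP and 3.69 ± 0.556 FPKM in shCON and did not pass (limma adjusted p = 0.0848), but it did without shCdGAP replicate 1 (limma adjusted p = 0.0176) and in the authors' deposited table (adjusted p = 0.0442).

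Phlda2, a maternally read gene that restrains placental growth, had 9.07, 7.70 and 9.68 FPKM in shCdGAP, against 37.1, 28.8 and 27.6 FPKM in shCON, and was lower in all 3 libraries (log2 fold change -1.70, SE 0.15, limma adjusted p = 9.99e-04). The 5 other tested genes of the Kcnq1 domain did not pass. Among them the antisense RNA Kcnq1ot1 had 0.0591, 0.101 and 0.105 FPKM in shCdGAP, against 0.125, 0.202 and 0.199 FPKM in shCON, without overlap (log2 fold change of FPKM + 1 -0.11, limma adjusted p = 0.171). In the authors' deposited table, whose scale has no added constant, Kcnq1ot1 was lower (log2 fold change -0.94, adjusted p = 0.0133). Blcap, which overlaps the imprinted gene Nnat, averaged 8.91 ± 0.258 FPKM in shCdGAP and 18.9 ± 1.10 FPKM in shCON (SD, n = 3 each; limma SE 0.09 on the log2 scale, adjusted p = 0.00106), a shCON mean 2.12 times the shCdGAP mean, while Nnat itself had 2 reads, both in shCON.

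Some genes in the domains of members with few or no reads were higher, as was Inpp5f, an imprinted gene elsewhere on chromosome 7. Around H19 calls went both ways. Of 8 tested protein-coding genes within 500 kb, 2 were higher, 1 lower and 5 did not pass, against 21.0% of all tested genes called. The lower gene, Ifitm10, averaged 0.0414 FPKM in shCdGAP and 0.159 FPKM in shCON (limma adjusted p = 0.0484). Mrpl23, a mitochondrial ribosomal protein gene next to H19, had 12.1, 8.82 and 8.95 FPKM in shCdGAP, against 5.39, 4.77 and 4.82 FPKM in shCON (log2 fold change 0.86, limma adjusted p = 0.00983), and did not pass without shCON replicate 2 or 3 (limma adjusted p = 0.0551 and 0.0521). Ddc, an amino acid decarboxylase beside Grb10, had 2.24, 1.32 and 0.794 FPKM in shCdGAP, against 0.128, 0.0652 and 0.0754 FPKM in shCON (log2 fold change 1.13, limma adjusted p = 0.0140), but limma adjusted p-values of 0.0517 to 0.0633 were reached without shCdGAP replicate 2 or any of the 3 shCON libraries. Inpp5f, a phosphoinositide phosphatase gene, averaged 5.80 ± 1.03 FPKM in shCdGAP and 3.54 ± 0.110 FPKM in shCON (log2 fold change 0.57, limma adjusted p = 0.0291, but 0.0586 with a replicate block); it did not pass without shCdGAP replicate 2 or without shCON replicate 1, 2 or 3, with limma adjusted p-values of 0.0785 to 0.111. Copg2 overlaps the end of Mest, and Pon3 lies 460 kb from Peg10. Lsp1, Pon3 and Copg2 also passed, at limma adjusted p-values of 0.0495, 0.0433 and 0.0480. With a replicate block Lsp1 and Pon3 did not (0.0695 and 0.0891). None of these 3 genes passed when any 1 library other than shCdGAP replicate 1 was left out, with limma adjusted p-values of 0.0536 to 0.160. Around Peg10, Sgce and Casd1 had 0 reads in all libraries. Ppp1r9a, also of that domain, averaged 0.0434 FPKM in shCdGAP and 0.143 FPKM in shCON, without overlap, and did not pass (limma adjusted p = 0.102). In the authors' deposited table it was lower (log2 fold change -1.56, adjusted p = 4.32e-04). Of the 5 genes of the domain tested there, 2 were higher and 1 lower, against 23.8% of all genes called.

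**Figure D3:**
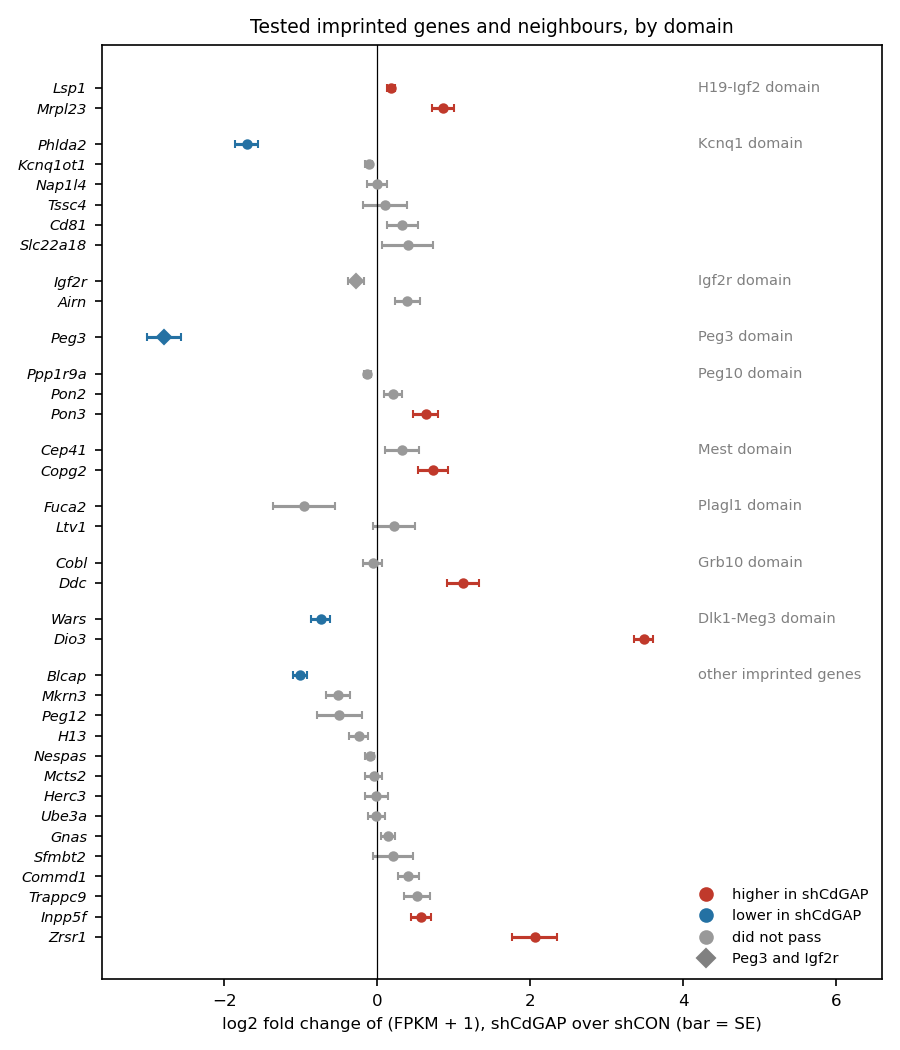
Log2 fold change of FPKM + 1, shCdGAP over shCON, with SE, for the 36 tested imprinted genes and neighbors, grouped by domain, with members drawn as diamonds. Dio3 lies farthest right at 3.49 and Peg3 farthest left at -2.79.

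Of 16 genes that set or keep imprints and DNA methylation, 12 were tested. In limma 1 was higher and 0 were lower, against 21.0% of all tested genes called, and the median log2 fold change was -0.03. At an unadjusted p under 0.05 the counts were also 1 higher and 0 lower, as in limma-voom and in the authors' deposited table. Dnmt3a, a de novo DNA methyltransferase, had 3.24, 3.12 and 2.58 FPKM in shCdGAP, against 2.09, 1.72 and 1.71 FPKM in shCON (log2 fold change 0.49, limma adjusted p = 0.0323). It did not pass without shCdGAP replicate 2 or without shCON replicate 1, 2 or 3, with limma adjusted p-values of 0.0526 to 0.140. Dnmt1, which copies methylation at replication, had 9.62, 45.5 and 41.0 FPKM in shCdGAP, against 35.8, 47.6 and 45.3 FPKM in shCON, and Uhrf1, which recruits it, had 4.17, 36.6 and 43.7 FPKM in shCdGAP, against 18.9, 27.4 and 28.1 FPKM in shCON. Both were low in shCdGAP replicate 1, the library that stood apart. Without that library 5 of the 12 passed, against 39.9% of all tested genes. DNA methylation was not analysed here.

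Of 8 partners of IGF2, which comprise the related ligand Igf1, the receptors Igf1r and Insr, the adaptors Irs1 and Irs2 and the mRNA-binding proteins Igf2bp1, Igf2bp2 and Igf2bp3, 7 were tested. The 2 calls, against 21.0% over all tested genes, were the adaptors, in opposite directions. Irs1 had 0, 0.00498 and 0.00880 FPKM in shCdGAP, against 2.31, 1.81 and 1.71 FPKM in shCON. These levels rest on 3 reads in shCdGAP and 1282 in shCON, and give a mean of 0.00460 ± 0.00442 FPKM in shCdGAP and 1.94 ± 0.321 FPKM in shCON (log2 fold change -1.55, SE 0.09, limma adjusted p = 2.67e-04). Irs2 had 10.7, 8.29 and 8.03 FPKM in shCdGAP, against 3.02, 2.68 and 2.50 FPKM in shCON, and was higher (log2 fold change 1.42, SE 0.14, limma adjusted p = 0.00144). The other 5 tested genes did not pass: Igf1r averaged 8.30 ± 0.768 FPKM in shCdGAP and 6.80 ± 0.369 FPKM in shCON, and the median over the 7 was 0.00. Igf2bp2 averaged 11.4 ± 3.54 FPKM in shCdGAP and 18.9 ± 3.20 FPKM in shCON (SD, n = 3 each; limma adjusted p = 0.0761), but was lower with a replicate block (limma adjusted p = 0.0240), without shCdGAP replicate 1 (0.00309) and in the authors' deposited table (0.0418). Without shCdGAP replicate 1, 4 of the 7 passed, against 39.9% of all tested genes, Igf1r among them (limma adjusted p = 0.0228). Igf1 had 1 read in all, and insulin was in the medium of both groups.

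**Figure D4:**
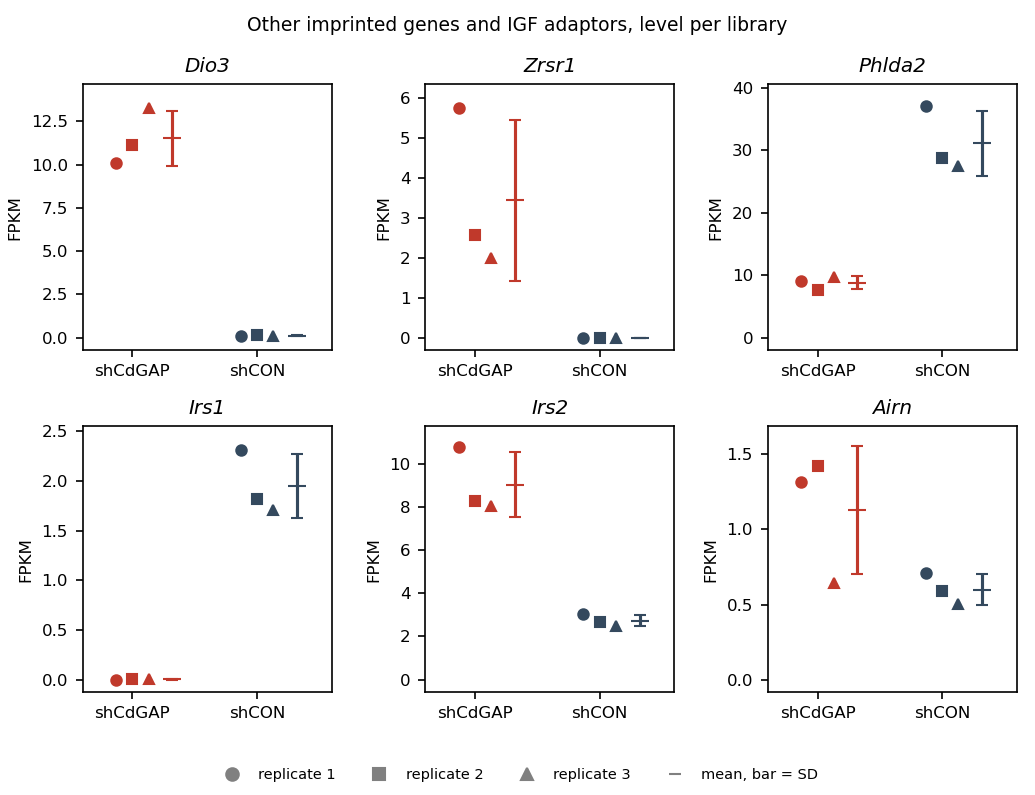
FPKM per library of Dio3, Zrsr1, Phlda2, Irs1, Irs2 and Airn in shCdGAP (red) and shCON (dark blue), with the mean and SD at the right of each group (n = 3), each panel on its own linear axis. The groups do not overlap except for Airn, where shCdGAP replicate 3 at 0.640 FPKM lies within the shCON range.

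Markers of other cell types partly moved with the groups. The summed fibroblast markers were at 0.605 to 1.10 FPKM in shCdGAP and 0.814 to 0.947 FPKM in shCON, with 0 of 2 tested markers past the threshold in limma, 0 at an unadjusted p under 0.05, 0 by the other tools, and Lum at 0. The endothelial sum was at 0 to 0.0295 FPKM in shCdGAP and 0.225 to 0.265 FPKM in shCON, with Emcn at 0 and 0 of 1 tested marker past the threshold in limma, although this marker, Tek, was lower at an unadjusted p under 0.05, in limma-voom and in the authors' deposited table. Cdh5, not tested in limma, was also lower in the authors' deposited table (log2 fold change -2.64, adjusted p = 5.62e-04). The immune sum was at 2.78 to 9.61 FPKM in shCdGAP and 12.8 to 17.6 FPKM in shCON, where Cd68, 1 of 2 tested markers, was lower (limma adjusted p = 0.0465, and 0.0703 to 0.151 without shCdGAP replicate 2 or 3 or any shCON library), Adgre1 was at 0 and Ptprc had at most 8 reads in a library. The adipocyte sum was at 0.275 to 1.01 FPKM in shCdGAP and 2.19 to 3.98 FPKM in shCON, with Fabp4 lower (limma adjusted p = 0.0115, and 0.0508 and 0.0531 without shCdGAP replicate 2 or shCON replicate 3) and Plin1 at 0. The limma calls among these markers stand against 21.0% over all tested genes. The part of these markers in the fall of Peg3 and Irs1 was not tested.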

How the data were processed

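Total RNA of 3 shCdGAP and 3 shCON libraries was sequenced; groups and replicate numbers came from the labels. The submitters' processing notes name Trimmomatic, TopHat2 2.0.13, featureCounts and DESeq2 and build mm10, without their order. Annotation release and strand handling: not given in the sources used here. The authors deposited FPKM values, already divided by size factors, and, per the file headers, their own DESeq2 comparison: a mean signal, a log2 fold change with its SE, a score, and p-values with adjusted values. Whole reads were recovered from the deposited FPKM and mean signal for 100% of values (tolerance 1e-06), and gave depth (19176540 to 26824249 reads per library), filter and CPM. Rows without a gene name held 0.0679% of reads.

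The 13483 genes with 15 or more reads in all, and with 10 or more (at the median depth) in 3 or more libraries, were tested with limma 3.58.1 in R 4.3.3 (trend and robust empirical Bayes, group as the single term, 2-sided) on log2(FPKM + 1), a scale that understates changes of low genes, with Benjamini-Hochberg adjustment at 0.05. Values are means ± SD over 3 libraries. Positions came from the GENCODE annotation of the same build and promoters from RefSeq. Python 3.11.15 was used for tables and plots. The fit was tested on simulated data, where the share of unchanged genes among its calls was above the nominal level, so calls just under the threshold are less certain than their adjusted p. The members and lists were chosen with earlier results of these data known. Members, the hairpin's target, up to 8 changed genes of each list by smallest p, and the 5 profiles most like Peg3 are named by rule; Airn, Usp29, Zim1, Zfp954 and other genes given with values outside these were chosen after their values were seen. Libraries that share a number deviated together from their groups (r = 0.43, 0.39 and 0.34 across genes), which was read as pairing, on the data alone and not the labels. But shCdGAP 2 also correlated at 0.35 with shCON 3, and shCdGAP 3 at 0.27 with shCON 2. Deviations within a group sum to 0, so these values show that the number 1 libraries deviated together. They do not tell numbers 2 and 3 apart, so the pairing of these is uncertain. Alternatives were other pseudocounts, filters and scalings, limma-voom on recovered reads, a replicate block, each library left out, and the authors' comparison.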

Additional observations from a re-analysis of the deposited data

How the results depend on the processing

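Peg3 was lower and passed in each of the 15 alternatives, with log2 fold changes of -10.01 to -2.54 and a highest adjusted p of 0.00666 (limma, limma-voom or the authors' test). Igf2r passed when shCdGAP replicate 1 was left out, and when both number 1 libraries were (-0.36, limma adjusted p = 0.0325), and in no other. Of 427 values of 29 genes under 15 alternatives, 352 stayed on their side of the threshold, 56 lost it, 19 gained it and 0 reversed. Dnmt3a also lost it with no filter (adjusted p = 0.0513).

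Leaving out 1 library gave 1237 to 5373 calls over all genes, 1 to 2 among members, 5 to 18 among other imprinted genes and neighbors, 0 to 5 among imprint keepers and 2 to 4 among IGF2 partners. The highest count over all genes was without shCdGAP replicate 1 and the lowest without shCON replicate 2. Without both libraries numbered 1 the counts were 6506 over all genes, 2 among members, 19 among neighbors, 5 among keepers and 4 among IGF2 partners. The authors' deposited comparison called 17 of 39 neighbors, against 4033 of 16970 genes. With no filter 0 of 14 keepers passed, in a fit that called 2489 of 22322 genes, and so few keepers cannot tell 0 calls from that share. The cause was not tested. The replicate block gave 2458 calls over all genes, 1 among members, 8 among neighbors and 3 among IGF2 partners. Among those 29 genes it ended the calls of Inpp5f, Lsp1, Pon3 and Krt7, added that of Igf2bp2, and changed no other.

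Depth limits the members at few reads: a count of 0 allows up to 0.156 CPM, and Grb10 and Meg3 had at most 4 reads in a library. Igf2 spread over 6 to 17 reads in shCdGAP and 1 to 9 in shCON. Scaling moved the median log2 fold change of all tested genes to between -0.05 and 0.03. No outlier test was made, since groups held 3 libraries.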
